A study of Saccharomyces cerevisiae with 4 samples.

Results

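Mitochondria of budding yeast, Saccharomyces cerevisiae, hold ribosomes of their own, built from a set of proteins separate from that of the cytosol. Their ribosomal RNA is encoded by the mitochondrial genome, while almost all of their proteins are encoded in the nucleus, made in the cytosol and imported. These ribosomes make a small set of membrane subunits of the respiratory chain and ATP synthase. The genes described are 59 nuclear genes of the MRPL, MRPS, RSM and MRP families, chosen by their open reading frame identifiers among 6176 genes on the arrays. The 6176 include identifiers that matched no gene of the reference. Of the 59 genes, 36 encode proteins of the large subunit and 23 of the small subunit, and all 59 had a row in the deposited table.

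The cells were a strain labelled as a ptc1 mutant and a wild-type strain. PTC1 encodes a protein phosphatase. Both strains were grown in log phase at 28 °C in YPD rich medium, and at an A660 of 0.5 they received rapamycin at 200 ng/ml for 1 h or a mock treatment with 90% ethanol and 10% Tween-20. Rapamycin acts on TORC1, a nutrient-responsive kinase complex that is known to promote transcription of cytosolic ribosomal protein genes. The sources used here do not give the parent strain, the form of the ptc1 mutation or the number of cultures. Each of 4 spotted 2-colour arrays, 2 per strain, set rapamycin-treated against mock-treated cells of 1 strain. Since the design states a dye swap for each RNA sample, both arrays of a strain were counted as 1 biological sample. A value is a log2 ratio, read as rapamycin over mock. Neither the base of the logarithm nor the direction is stated with the values. Total RNA was the input, so a ratio compares shares of the RNA and not amounts per cell. Counted as 1 RNA pair per strain, the arrays give no biological replicate and no p-value. The ± of a mean is the SD of 2 arrays, which carries technical spread. Whether it also carries spread between cultures is not known. The words rose and fell are kept for genes with a mean of at least 1 in size (2-fold) whose 2 arrays had the same sign.

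PTC1 itself (YDL006W) had no value on either ptc1 array, and on the wild-type arrays its log2 ratios were 0.003 and −0.53. The arrays held values for 5418 and 5301 rows in ptc1 and for 5017 and 5006 rows in the wild type. Of the 59 genes, 53 were measured on both ptc1 arrays, 48 on both wild-type arrays and 47 on all 4. MRPL13, MRPL15, MRPL24, MRPL39 and MRPS17 had no value on any array and are not described further. MRPL17 had values in the wild type alone. MRPL31, MRPL38 and MRP4 were measured in ptc1 alone, and MRPL8, MRPL33 and MRPL44 lacked a value on wild-type array 1. MRPL19, MRPL51 and MRP4 overlap another annotated open reading frame, and signal shared with it was not examined.

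The first question was whether genes of the mitochondrial ribosome respond to rapamycin. Most changed little in either strain. In ptc1, 52 of 53 measured genes (98.1%) had a mean within 2-fold of the mock level, and in the wild type 45 of 48 (93.8%) did. Over all genes the shares within 2-fold were 77.1% of 5221 in ptc1 and 71.3% of 4796 in the wild type. In ptc1, 1 gene fell (1.89%, beside 12.4% of all genes) and 0 rose (beside 10.6% of all genes). In the wild type 3 fell (6.25%, beside 15% of all genes) and 0 rose (beside 13.8%). The median log2 ratio was −0.11 in ptc1, with quartiles of −0.27 and 0.15, and −0.14 in the wild type, with quartiles of −0.47 and 0.14. The medians of all genes were 0.08 in ptc1 and 0.07 in the wild type. Since each strain was counted as 1 RNA pair, no test of the distance between these medians was made.

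**Figure D1:**
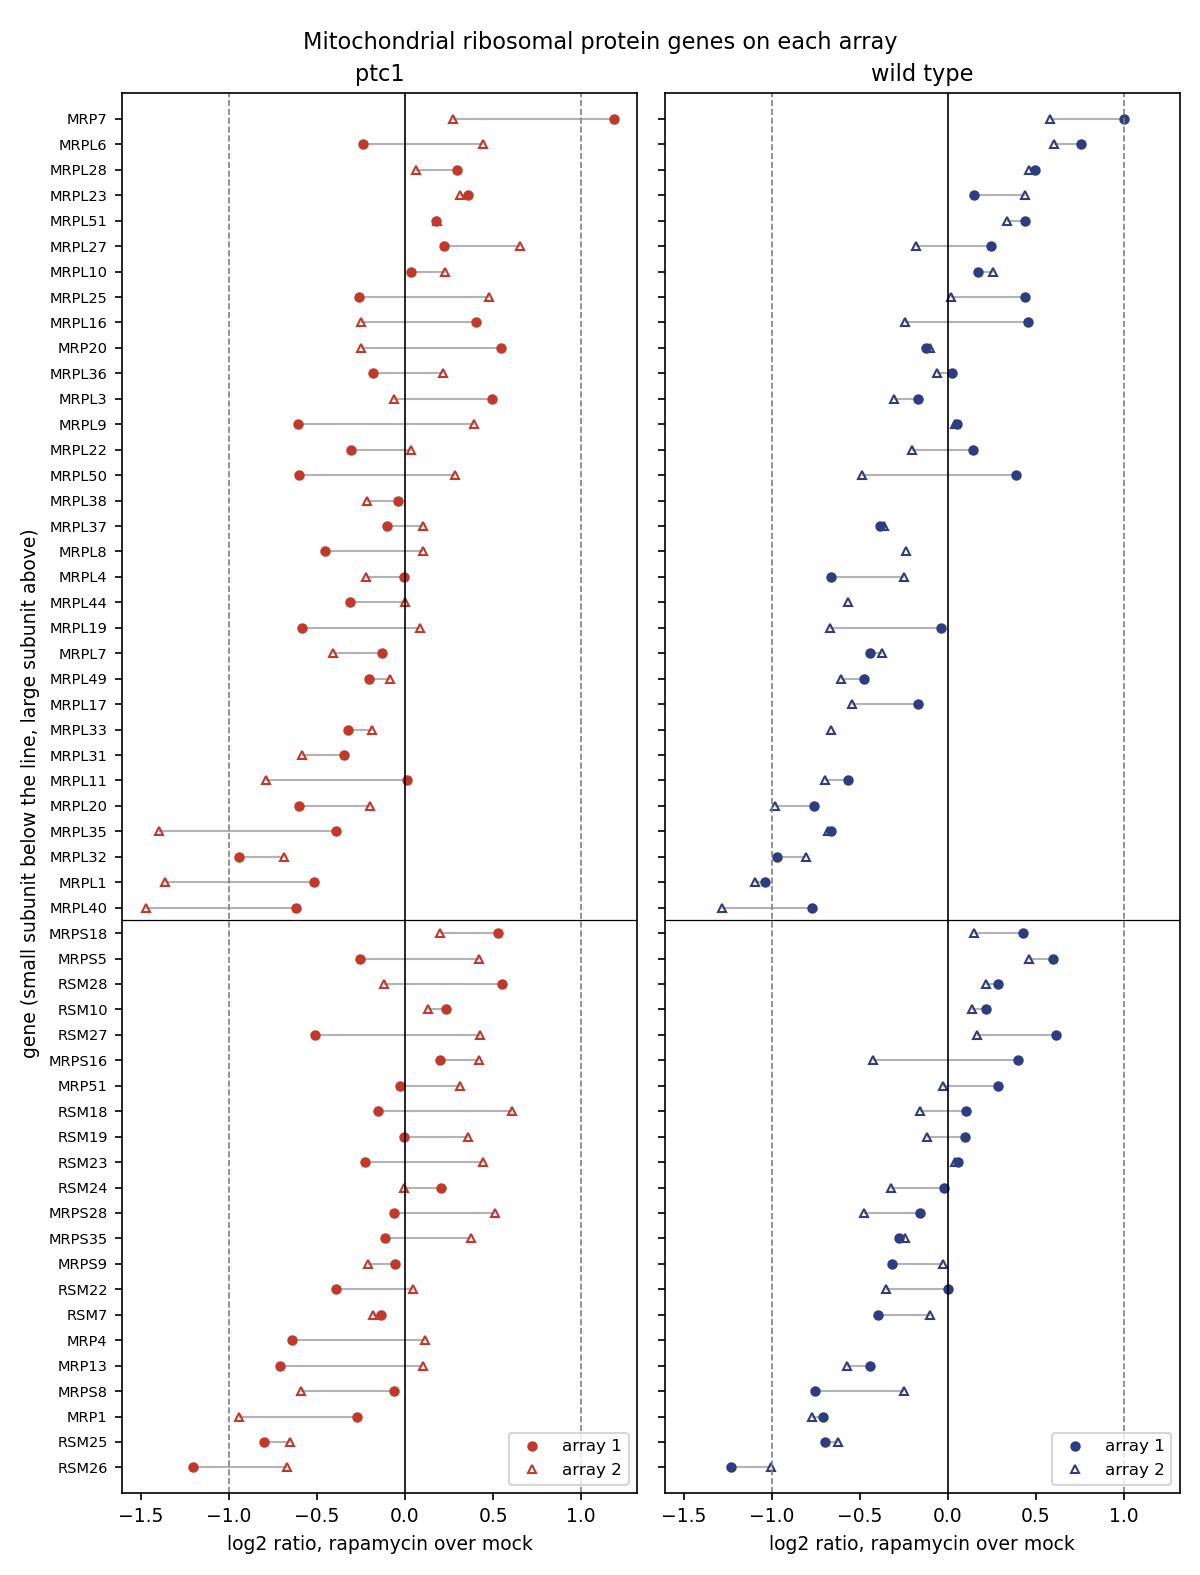
Log2 ratio of rapamycin over mock (x axis) of each measured mitochondrial ribosomal protein gene (rows, by subunit and mean) on the 2 arrays of ptc1 (left) and of the wild type (right); dashed lines mark 2-fold. Most genes lie between the dashed lines in both strains, the lowest means are those of MRPL40, RSM26 and MRPL1 and the highest is that of MRP7, and the arrays of ptc1 lie farther apart than those of the wild type.

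In ptc1 the sign of the median differed between the arrays. The median of these genes was −0.16 and 0.06 on ptc1 arrays 1 and 2, and −0.0085 and −0.24 on wild-type arrays 1 and 2. Set against the median of each array, the median of these genes lay below 0 on all 4 arrays. It was −0.17 and −0.017 in ptc1, nearly 0 on array 2, and −0.14 and −0.24 in the wild type. Over the 47 genes measured on all 4 arrays the ptc1 median was 0.02 and the wild-type median −0.11. The median SD of a gene over its arrays was 0.31 in ptc1 and 0.15 in the wild type, beside 0.28 and 0.15 over all genes. In ptc1, 27 of 53 genes (50.9%) had opposite signs on the 2 arrays, against 10 of 48 (20.8%) in the wild type. Over all genes these shares were 24.2% in ptc1 and 12.6% in the wild type.

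The genes with the lowest means over 4 arrays were below 0 on each of them. MRPL40 (YPL173W), whose product belongs to the uL24 family of large-subunit proteins, had log2 ratios of −0.62 and −1.47 on the ptc1 arrays and −0.77 and −1.28 on the wild-type arrays. All 4 values were below 0, those of the strains overlapped, and on each strain's array 1 the fall was short of 2-fold. Its means were −1.05 ± 0.60 in ptc1 and −1.03 ± 0.36 in the wild type, 2.07-fold and 2.04-fold lower after rapamycin, and it was the gene that fell in both strains.

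RSM26 (YJR101W), which encodes a small-subunit protein with a superoxide dismutase-like fold, had values of −1.21 and −0.67 in ptc1 and −1.23 and −1.01 in the wild type. It fell in the wild type, with a mean of −1.12 ± 0.16, and at −0.94 ± 0.38 it did not reach 2-fold in ptc1. MRPL1 (YDR116C), the gene of the protein of the large subunit's L1 stalk, had −0.52 and −1.36 in ptc1 and −1.04 and −1.09 in the wild type. Its wild-type arrays lay close together and both past 2-fold, with a mean of −1.07 ± 0.04, while its ptc1 arrays lay on either side of them, with a mean of −0.94 ± 0.60.

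The next lowest genes did not pass the 2-fold rule in either strain. MRPL32 (YCR003W), whose product is known to be trimmed by the m-AAA protease of the inner membrane before it joins the ribosome, had −0.95 and −0.69 in ptc1 and −0.97 and −0.81 in the wild type. MRPL35 (YDR322W), a large-subunit gene with no bacterial counterpart, had −0.40 and −1.40 in ptc1 and −0.67 and −0.68 in the wild type. The arrays thus set MRPL35 past 2-fold on 1 of 4, and those of ptc1 lay on both sides of those of the wild type. RSM25 (YIL093C), a mitochondria-specific gene of the small subunit, had −0.80 and −0.66 in ptc1 and −0.69 and −0.62 in the wild type, the narrowest range among the low genes named here. MRP1 (YDR347W), which encodes a small-subunit partner of the same dismutase-like fold as the RSM26 product, had −0.28 and −0.94 in ptc1 and −0.71 and −0.77 in the wild type.

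At the other end, MRP7 (YNL005C), which encodes the counterpart of bacterial L27 at the peptidyl transferase centre, had values of 1.19 and 0.27 in ptc1 and 1.00 and 0.58 in the wild type. Array 1 of each strain was past 2-fold and array 2 was not, so the means of 0.73 ± 0.65 in ptc1 and 0.79 ± 0.30 in the wild type were short of the rule. MRPL6 (YHR147C), of the uL6 family, had −0.24 and 0.44 in ptc1 and 0.76 and 0.61 in the wild type. MRPL28 (YDR462W), a mitochondria-specific gene of the large subunit, had 0.30 and 0.06 in ptc1 and 0.49 and 0.46 in the wild type. For both genes the ptc1 arrays lay below the wild-type arrays. MRPS18 (YNL306W), a small-subunit gene of the uS11 family, had 0.53 and 0.20 in ptc1 and 0.43 and 0.15 in the wild type. MRPL23 (YOR150W), of the uL13 family, had 0.36 and 0.31 in ptc1 and 0.15 and 0.44 in the wild type. The values of MRPS18 and MRPL23 were above 0 on all 4 arrays and overlapped between strains.

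With the size lowered to 1.5-fold, 7 genes were lower in ptc1 (beside 20.3% of all genes) and 9 in the wild type (beside 23.7%), while 1 was higher in ptc1 (beside 22.2%) and 2 in the wild type (beside 26.4%). As shares of the measured genes these counts are below those of all genes in each case. Values below 0 on all 4 arrays were found for 14 of 47 genes, beside 31.6% of all genes, and values above 0 on all 4 for 7, beside 36.4%. The 14 were MRPL1, MRPL4, MRPL7, MRPL20, MRPL32, MRPL35, MRPL40, MRPL49, RSM7, RSM25, RSM26, MRPS8, MRPS9 and MRP1. The 7 were MRPL10, MRPL23, MRPL28, MRPL51, MRP7, RSM10 and MRPS18. The other 26 genes had mixed signs. The count of falls in ptc1 depends on array 1 of that strain: without it 3 genes were past 2-fold, MRPL40, MRPL35 and MRPL1.

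The genes that lay near 0 include several of known role. RSM10 (YDR041W), of the uS10 family, had 0.23 and 0.13 in ptc1 and 0.22 and 0.14 in the wild type, all above 0 and nearly alike. RSM7 (YJR113C), of the uS7 family, had −0.14 and −0.18 in ptc1 and −0.40 and −0.098 in the wild type. MRPL10 (YNL284C), of the uL15 family, had 0.03 and 0.23 in ptc1 and 0.17 and 0.26 in the wild type. For other genes the arrays of ptc1 had opposite signs. MRPL9 (YGR220C), of the uL3 family, had −0.61 and 0.39 in ptc1, the second widest pair in that strain after MRPL35, and 0.06 and 0.04 in the wild type. MRPL50 (YNR022C), of the bL9 family, had −0.60 and 0.28 in ptc1 and 0.39 and −0.49 in the wild type. RSM23 (YGL129C), the yeast relative of human DAP3 in the small subunit, had −0.23 and 0.44 in ptc1 and 0.06 and 0.04 in the wild type. MRP13 (YGR084C), a mitochondria-specific gene of the small subunit, had −0.71 and 0.10 in ptc1 and −0.44 and −0.57 in the wild type. Of the genes measured in part, MRPL31 (YKL138C) had −0.35 and −0.59 in ptc1, MRP4 (YHL004W), of the uS2 family, had −0.64 and 0.11 in ptc1, and MRPL17 (YNL252C) had −0.17 and −0.54 in the wild type. The means of these genes were all under 1.5-fold in size.

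Neither subunit moved as a unit. The large-subunit genes had a median of −0.13 in ptc1 (31 measured) and −0.11 in the wild type (27 measured), with 1 and 2 falls. The small-subunit genes had a median of 0.09 in ptc1 (22 measured) and −0.17 in the wild type (21 measured), with 0 and 1 falls. Genes whose products belong to families shared with bacterial ribosomes had medians of −0.12 in ptc1 and −0.04 in the wild type (32 and 28 measured). Those of mitochondria-specific proteins had medians of −0.001 in ptc1 and −0.25 in the wild type (19 and 18 measured). The order of the 2 subunits and that of the 2 classes were opposite in the 2 strains. RSM22, which encodes a methyltransferase-like protein of the small subunit, and MRP51 were put in neither class. RSM22 had −0.40 and 0.04 in ptc1 and 0.004 and −0.35 in the wild type.

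The second question was how this compares with the ribosome of the cytosol, whose genes are well-known targets of TORC1 signalling. Of 125 measured cytosolic ribosomal protein genes 123 fell in ptc1 (beside 12.4% of all genes), with a median log2 ratio of −3.40. Of 117 measured in the wild type 116 fell (beside 15%), with a median of −3.68. Many proteins of the 2 ribosomes descend from the same ancestral family, which allows a comparison family by family. The 25 families with a mitochondrial gene among the 59 and a cytosolic gene or gene pair were paired. In ptc1, 24 families were measured on both sides, and in all 24 both array values of the mitochondrial gene were above every value of the cytosolic genes. In the wild type this held for 20 of 20. Within a family the mitochondrial mean exceeded the cytosolic mean by a median of 3.27 in ptc1, with a range of 2.43 to 4.47, and by 3.58 in the wild type, with a range of 2.25 to 5.17.

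The closest pair in ptc1 was that of the uL1 family, with MRPL1 at −0.94 ± 0.60 and the pair RPL1A and RPL1B at −3.37 ± 0.60. In the wild type it was that of uL24, with MRPL40 at −1.03 ± 0.36 and RPL26B, the measured gene of its pair, at −3.28 ± 0.59. The widest in ptc1 was uS8, with MRPS8 at −0.33 ± 0.38 and RPS22A at −4.79 ± 0.27. The widest in the wild type was uL6, with MRPL6 at 0.68 ± 0.11 and the pair RPL9A and RPL9B at −4.49 ± 0.06. MRPL40, which fell in both strains, and MRPL1, which fell in the wild type, lay above their measured cytosolic relatives on every array. Cytosolic pairs are near-identical in sequence and an array may not separate them, so their mean was used. Across families the cytosolic and mitochondrial values were weakly related: r was 0.21 and Spearman's rho 0.28 over 24 families in ptc1, and r was −0.04 and rho 0.006 over 20 families in the wild type, with all values of a strain from the same arrays.

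**Figure D2:**
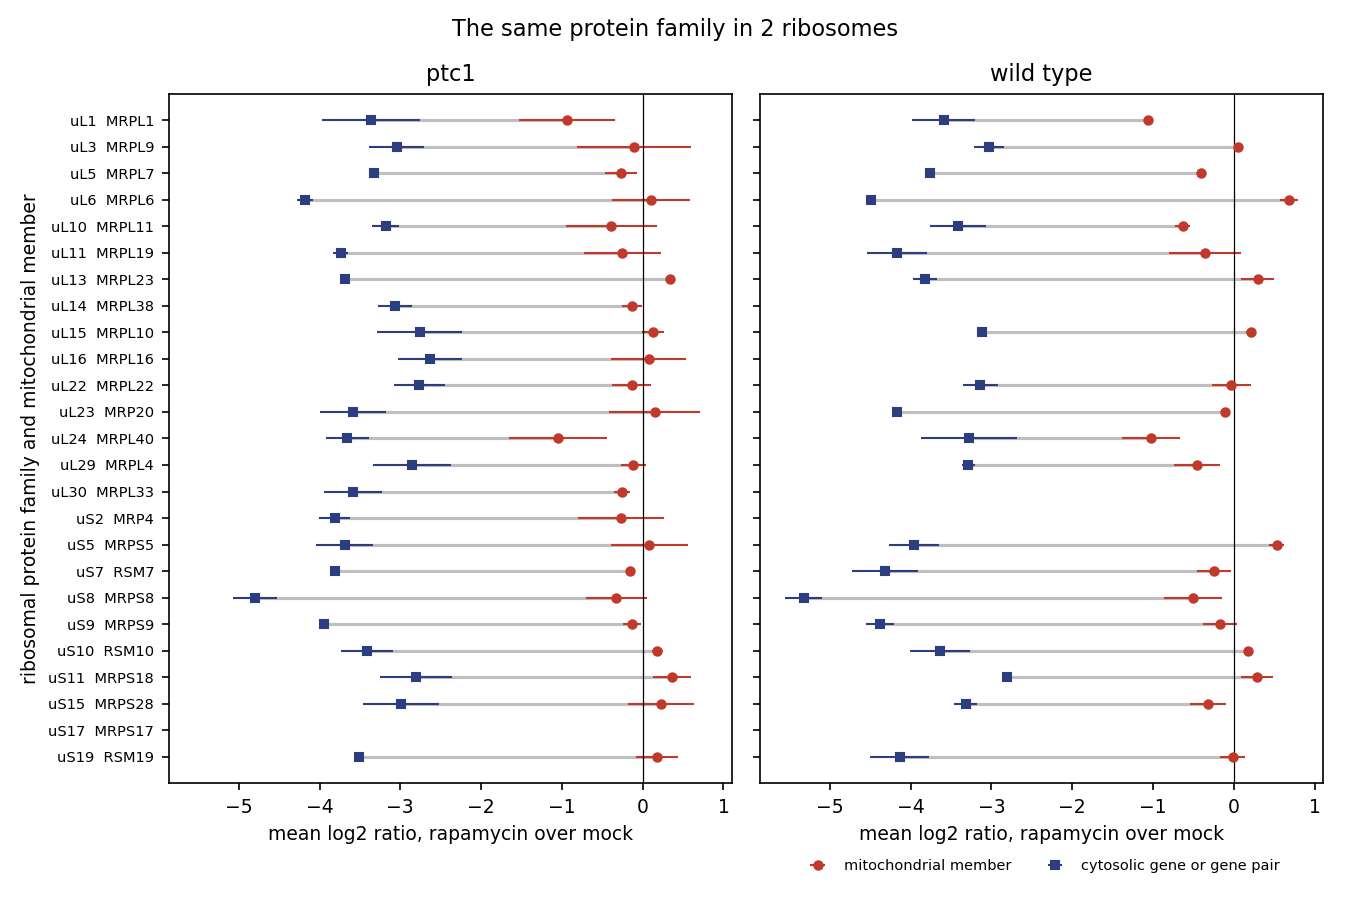
Mean log2 ratio of rapamycin over mock (x axis) of the mitochondrial member (circles) and of the cytosolic gene or gene pair (squares) of each ribosomal protein family (rows), in ptc1 (left) and in the wild type (right); bars are the SD of 2 arrays and families without both values are blank. The squares lie to the left of the circles in all 24 families measured in ptc1 and all 20 in the wild type.

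Genes that stand back to back on a chromosome were compared next. Of the 59 genes, 36 have an upstream neighbour on the opposite strand in the reference gene order. No gap between the genes was required, and some neighbours are noncoding loci without values, such as those of MRPL3 and MRPL10. The neighbours of MRPL51 and MRP4 overlap these genes, and the MRPL51 pair is among the pairs with values in both strains. In ptc1, 23 such pairs had values on both sides, and 4 of the neighbours fell (beside 12.4% of all genes) and 1 rose (beside 10.6%). In the wild type 20 pairs had values, and 4 neighbours fell (beside 15%) and 0 rose (beside 13.8%). The neighbours had medians of −0.16 in ptc1 and −0.15 in the wild type. With so few pairs, these counts are not read as a difference from all genes. The neighbours that changed are given as examples, named after their values were seen. URA7, which encodes CTP synthase and stands beside MRPL16 (YBL038W), had −4.15 and −4.57 in ptc1 and −5.02 and −4.88 in the wild type. MRPL16, of the uL16 family, had 0.40 and −0.25 in ptc1 and 0.46 and −0.24 in the wild type, near 0 and with a sign that changed between the arrays of each strain. RRP12, which encodes a ribosome export factor, stands beside MRPS16 (YPL013C) and had means of −2.10 ± 0.40 in ptc1 and −2.30 ± 0.43 in the wild type. MRPS16, of the bS16 family, had 0.20 and 0.42 in ptc1 and 0.40 and −0.43 in the wild type.

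DBP6, the gene of an RNA helicase of ribosome assembly, stands beside RSM19 (YNR037C) and had −1.65 ± 0.51 in ptc1 and −2.15 ± 0.13 in the wild type. RSM19, of the uS19 family, had −0.008 and 0.36 in ptc1 and 0.10 and −0.12 in the wild type. SMP3, the gene of a mannosyltransferase of lipid anchor synthesis, stands beside MRPL23 and had −1.85 ± 0.20 in ptc1 and −2.35 ± 0.08 in the wild type. In these 4 pairs the neighbour fell in both strains and the mitochondrial ribosomal gene did not. FMN1, the riboflavin kinase gene beside MRPL7, was the neighbour that rose in ptc1, to 1.02 ± 0.29, and had no wild-type mean. Over all pairs the values of the 2 genes were nearly unrelated, with r = −0.15 over 23 pairs in ptc1 and r = −0.12 over 20 in the wild type, each pair read from the same arrays.

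**Figure D3:**
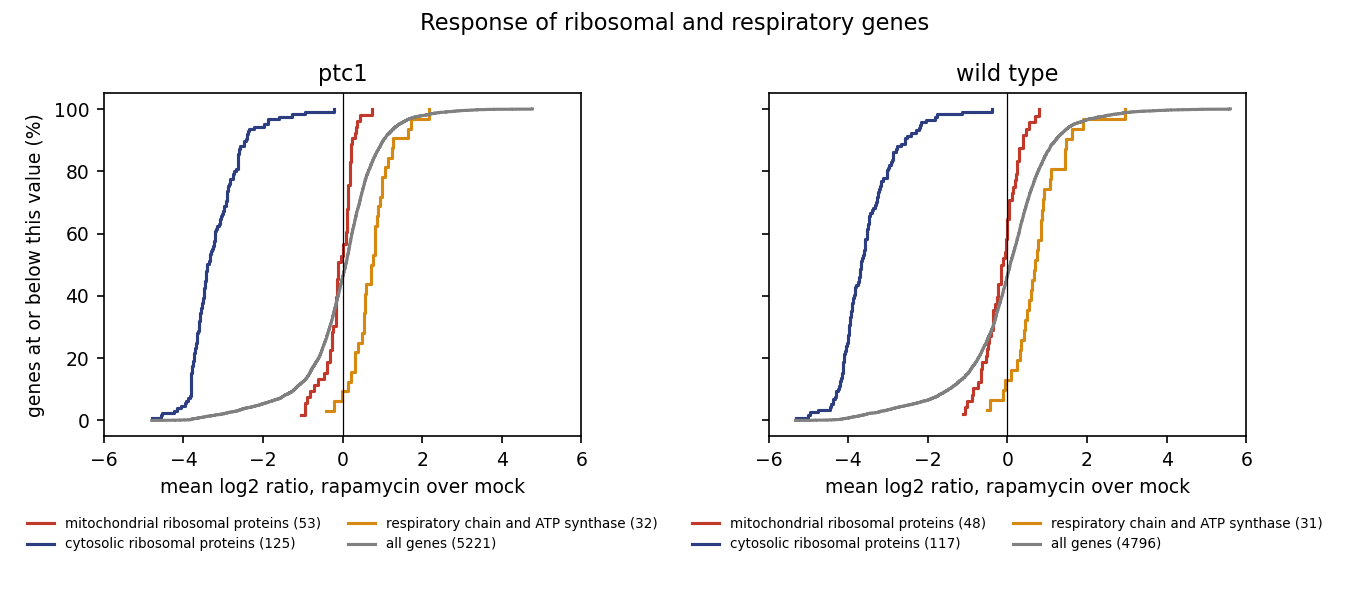
Cumulative share of genes (y axis, percent) against the mean log2 ratio of rapamycin over mock (x axis) in ptc1 (left) and the wild type (right) for mitochondrial ribosomal proteins, cytosolic ribosomal proteins, respiratory chain and ATP synthase subunits and all genes, with the number measured in brackets. The mitochondrial ribosomal curve is steep and centred near 0, the cytosolic curve is centred at −3.40 in ptc1 and −3.68 in the wild type, and the respiratory curve lies mostly to the right of 0.

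The third question was whether other nuclear genes of mitochondrial gene expression behaved in the same way. Over all genes 10.6% rose and 12.4% fell in ptc1, and 13.8% rose and 15% fell in the wild type. Another 16 genes of mitochondrial ribosomal proteins lie outside the 59, though some, such as MRP2, MRP10 and MRPS12, carry the same family names. These 16 had 0 rises and 0 falls in ptc1 (13 measured, median −0.08) and in the wild type (13 measured, median −0.11). MNP1, the counterpart of bacterial L7/L12, was the lowest of them in both strains, with −0.995 and −0.36 in ptc1 and −0.84 and −0.88 in the wild type, without reaching 2-fold in the mean. Mitochondrial tRNA synthetases had 0 rises and 0 falls, with medians of 0.16 in ptc1 (12 measured) and 0.19 in the wild type (11 measured). Translation factors of the organelle had medians of 0.14 in ptc1 (9 measured, 0 changed) and 0.24 in the wild type (7 measured, 1 higher). The gene that rose was RRF1, the ribosome recycling factor gene, with values of −0.21 and 0.87 in ptc1 and 1.29 and 1.22 in the wild type. Its ptc1 arrays disagreed in sign and both lay below the wild-type arrays.

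A few genes in these lists changed in both strains. MTG2, which encodes a GTPase that assembles the large mitochondrial subunit, had 1.44 and 1.69 in ptc1 and 1.83 and 2.02 in the wild type, with means of 1.57 ± 0.18 in ptc1 and 1.93 ± 0.14 in the wild type. ATP22, the gene of the translational activator of the mitochondrial ATP6 message, had 1.23 and 1.02 in ptc1 and 1.02 and 1.18 in the wild type. COX18, whose product helps to insert Cox2 into the inner membrane, had −1.36 and −1.41 in ptc1 and −1.55 and −1.49 in the wild type. Every array of both strains was past 2-fold for these genes. Of 7 assembly and rRNA modification genes MTG2 was the gene past the rule, and so was ATP22 among 13 translational activators measured in ptc1 and 11 in the wild type, and COX18 among 4 insertion genes measured in ptc1 and 3 in the wild type. Genes for mitochondrial genome maintenance and transcription (RPO41, MTF1, ABF2 and MIP1) had 0 rises and 0 falls. With lists this short, the counts in them are not read as a difference from all genes. PUF3, whose product is known to bind messages of mitochondrial ribosomal proteins, had 0.24 and 0.10 in ptc1 and −0.28 and 0.24 in the wild type.

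The respiratory chain and ATP synthase, of which some but not all complexes hold subunits made by the mitochondrial ribosome, differed from the ribosome itself. Of 32 measured nuclear genes for their subunits 7 rose in ptc1 (21.9%, beside 10.6% of all genes), with a median of 0.75. Of 31 in the wild type 8 rose (25.8%, beside 13.8%), with a median of 0.71. In either strain 0 fell, beside 12.4% of all genes in ptc1 and 15% in the wild type. Values above 0 on all 4 arrays were found for 24 of 31 of these genes, against 7 of 47 mitochondrial ribosomal genes and 36.4% of all genes. Among the rises COX5B, an alternative cytochrome oxidase subunit gene, had 1.62 and 2.70 in ptc1 and 3.10 and 2.83 in the wild type. SDH4, a membrane anchor gene of succinate dehydrogenase, had 2.05 and 1.38 in ptc1 and 1.63 and 2.18 in the wild type. Among genes of the cytochrome bc1 complex, QCR10 averaged 1.65 ± 0.28 in ptc1 and 1.46 ± 0.19 in the wild type, and QCR9 averaged 1.27 ± 0.47 in ptc1 and 1.63 ± 0.03 in the wild type.

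**Figure D4:**
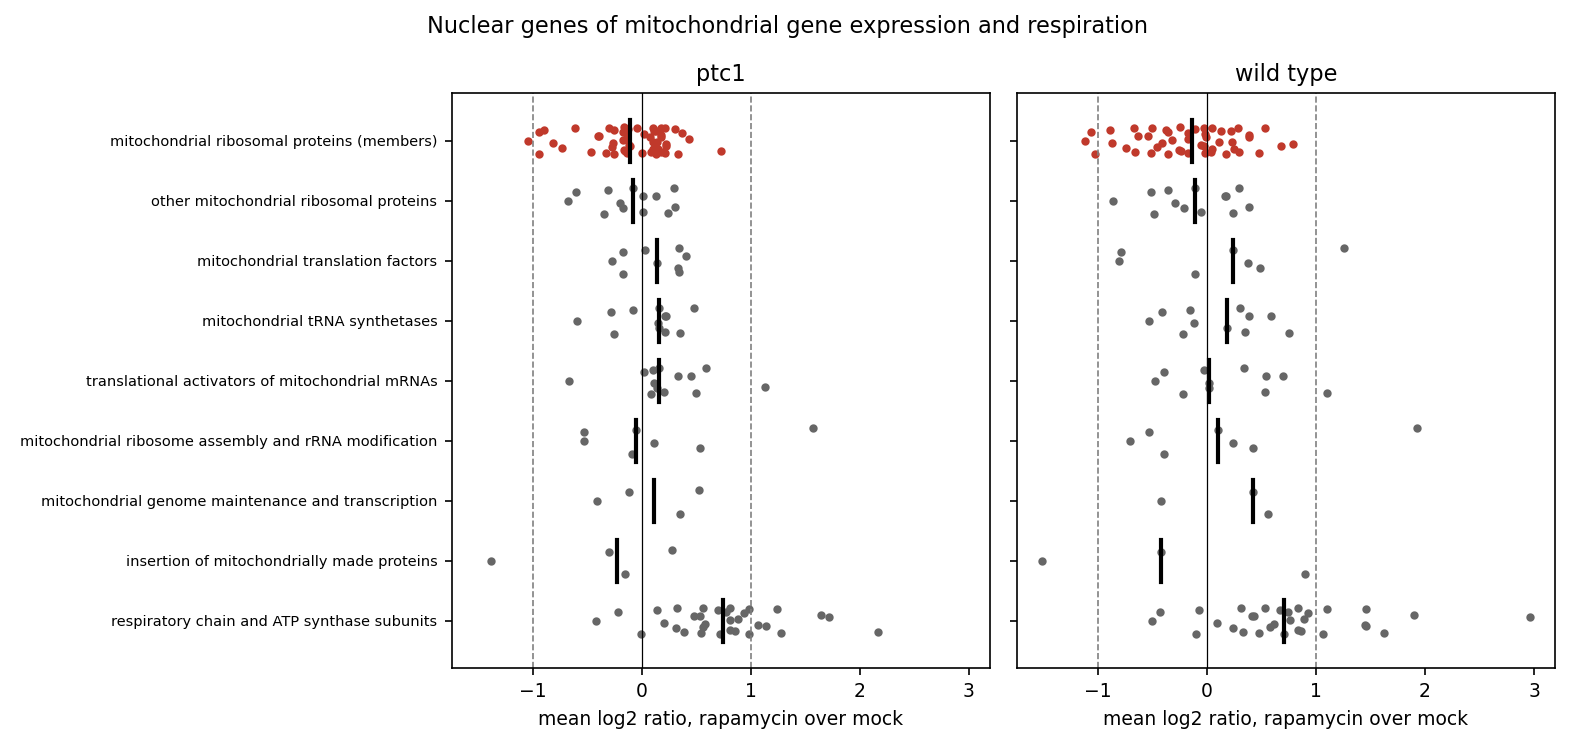
Mean log2 ratio of rapamycin over mock (x axis) of single genes (points) in lists of nuclear genes for mitochondrial gene expression and respiration (rows), in ptc1 (left) and the wild type (right); thick bars are list medians and dashed lines mark 2-fold. The list medians lie between −0.42 and 0.43 save that of the respiratory chain and ATP synthase, at 0.75 in ptc1 and 0.71 in the wild type.

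The last question was whether the response of these genes depends on Ptc1. Of the 47 genes measured on all 4 arrays, 0 passed a strain difference of at least 2-fold with all 4 array-to-array differences of the same sign, beside 1.91% of all genes. The differences of ptc1 minus wild type ranged from −0.58 to 0.54 on the log2 scale, with a median of 0.07, and were above 0 in 30 genes and below 0 in 17. The median difference of all genes was −0.0035. Taken over the 4 pairs of a ptc1 and a wild-type array, the median of these genes ranged from 0.02 to 0.12. Cytosolic ribosomal protein genes had a larger median difference of 0.35, ranging from 0.19 to 0.52 over the pairs, with no gene past the rule. The size of that cytosolic difference depended on array scaling. With arrays centred and scaled to equal spread, the cytosolic medians were −3.57 in ptc1 and −3.61 in the wild type. As deposited they were −3.40 and −3.68. A ratio is set against the strain's own mock-treated cells, so such a difference can come from the numerator or the denominator.

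Both ptc1 arrays lay above both wild-type arrays for 8 of the 47 genes, beside 18.2% of all genes, and below them for 4, beside 16.5% of all genes. MRPS28 (YDR337W), of the uS15 family, had the largest positive difference, with −0.07 and 0.51 in ptc1 and −0.16 and −0.48 in the wild type. The difference was 0.54 ± 0.47, its ± combining the SDs of both strains. MRPL20 (YKR085C), a mitochondria-specific gene of the large subunit, had −0.61 and −0.20 in ptc1 and −0.76 and −0.98 in the wild type, a difference of 0.47 ± 0.33. MRPL3 (YMR024W), whose product carries a ribonuclease III-like domain, had 0.49 and −0.06 in ptc1 and −0.17 and −0.30 in the wild type, a difference of 0.45 ± 0.40. For these genes the groups of arrays did not overlap, and each difference was less than 1.5 times its ±. MRPL27 (YBR282W), with a difference of 0.40 ± 0.43, had 0.22 and 0.65 in ptc1 and 0.25 and −0.18 in the wild type, and its strains overlapped. MRPL49 (YJL096W), of the bL21 family, had −0.21 and −0.08 in ptc1 and −0.48 and −0.61 in the wild type. Its difference of 0.40 ± 0.12 was more than its array spread.

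In the other direction MRPL6 had the largest difference, −0.58 ± 0.49. MRPS5 (YBR251W), of the uS5 family, had −0.26 and 0.42 in ptc1 and 0.60 and 0.46 in the wild type, a difference of −0.45 ± 0.49. RSM27 (YGR215W), a mitochondria-specific gene of the small subunit, had −0.51 and 0.43 in ptc1 and 0.61 and 0.17 in the wild type, and its groups overlapped. The differences of RSM27 (−0.43 ± 0.73) and MRPL35 (−0.22 ± 0.71) were smaller than their ±, while that of MRPL28 (−0.30 ± 0.17) was larger. The other genes for which the strains did not overlap were MRPL4, MRPL37, RSM24 and MRPS35, higher in ptc1 by 0.27 to 0.39, and MRPL51, lower in ptc1 by 0.21.

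Across the 47 genes, which are not independent replicates, the strain means correlated with r = 0.85 (Spearman's rho = 0.77), and the arrays of the wild type with r = 0.82. The ptc1 arrays correlated with r = 0.32 (rho = 0.18), less than each ptc1 array did with each wild-type array (r from 0.57 to 0.75). Over all 4650 genes measured on 4 arrays the ptc1 arrays correlated with r = 0.87 and the wild-type arrays with r = 0.96. There too the ptc1 arrays correlated less with each other than with each wild-type array (r from 0.90 to 0.94). The pattern is thus not particular to the mitochondrial ribosomal genes. On ptc1 array 1, 38 of 53 genes were below 0, and on ptc1 array 2, 23 of 53. Values of single mitochondrial ribosomal genes are less precise in ptc1, and so are those of all genes, whose median SD was 0.28 in ptc1 and 0.15 in the wild type. The means of the mitochondrial ribosomal genes also spanned less, with an SD over genes of 0.38 in ptc1 against 1.05 over all genes.

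**Figure D5:**
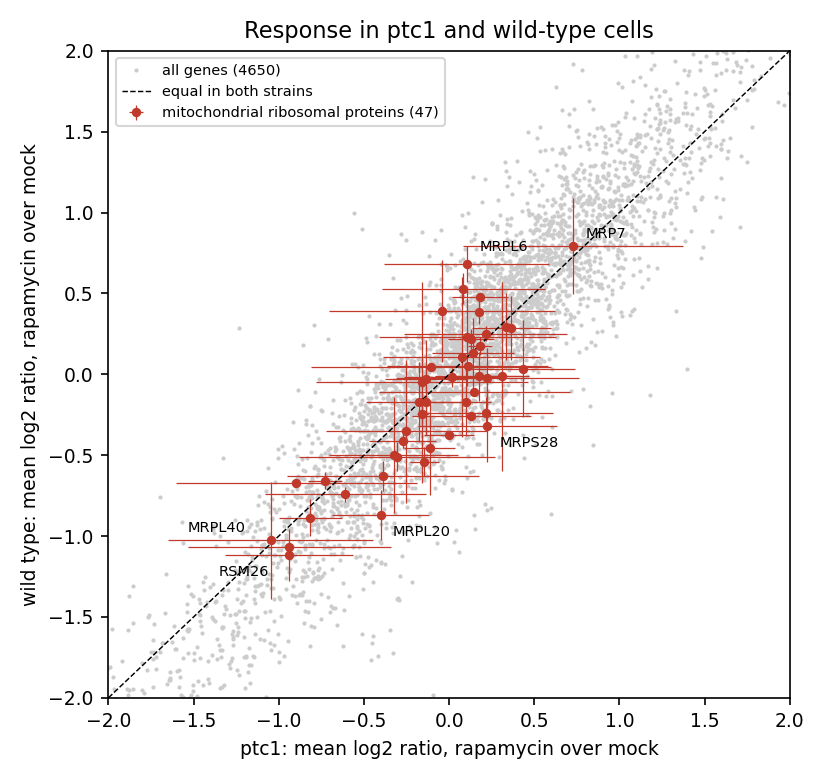
Mean log2 ratio of rapamycin over mock in ptc1 (x axis) against that in the wild type (y axis) for all genes (grey) and for the 47 mitochondrial ribosomal protein genes measured on all 4 arrays (red, bars are the SD of 2 arrays); the axes are cut at 2 in size and the dashed line marks equal values. The red points lie on both sides of the line, with differences between −0.58 for MRPL6 and 0.54 for MRPS28, and their bars are mostly longer in ptc1.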

How the data were processed

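The deposited table holds 1 log2 ratio per open reading frame and array. Per the labels, cDNA of 8 µg total RNA was labelled, spots narrower than 120 µm or dimmer than 150 units in the dyes were dropped, and a ratio of medians set the normalisation. The sources used here name no scanner software, background correction or treatment of repeated spots. The base 2 and the direction, rapamycin over mock, were assumed, the latter from the study's design. Titles and dye fields of the ptc1 arrays contradict each other on which dye marks rapamycin, and each strain's mean holds both orientations. Column medians were 0.015 and 0.083 in ptc1 and 0.131 and −0.0015 in the wild type.

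Of 6212 rows, 5662 were named by locus tag and 52 by a unique synonym in a RefSeq gene table of assembly R64. Its coordinates gave the gene order and the overlaps between genes. The other 498 rows matched neither, kept their own identifiers and stayed in the counts of all genes. Rows of a gene were averaged. Counts, medians, SDs and correlations were computed with Python 3.11.15 and pandas 2.3.3. The counting rules were tested on simulated data. No test was run, since each strain was counted as 1 RNA pair. Named genes were those past 2-fold, the 6 highest and 6 lowest means of 4 arrays and the 5 highest and lowest strain differences. Other genes given with values were chosen after their values were seen. Members, lists and family pairs were chosen with earlier results of these data known. Classes, families and roles come from general knowledge. The number of arrays limits the precision.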

Additional observations from a re-analysis of the deposited data

How the results depend on the processing

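Of 59 recomputed values, over 8 results, 47 stayed within 1.5 times the count or within 1 SD between arrays of the median. Some of these values could not move: a count of 0 at 2-fold stays 0 at 3-fold. The strain differences already used only genes measured on all 4 arrays. The tally is therefore not a measure of robustness. At 1.5-fold, 7 genes were lower and 1 higher in ptc1, and 9 lower and 2 higher in the wild type. At 3-fold, 0 were lower in ptc1 and 0 in the wild type. With arrays scaled to equal spread 3 genes were lower in ptc1. Leaving out an array gave 1 to 3 lower and 0 to 1 higher genes in ptc1, 2 to 3 lower and 0 to 1 higher genes in the wild type, and 0 genes past the strain difference rule. The medians then ranged from −0.16 to 0.06 in ptc1 (0.064 without array 1) and from −0.24 to −0.0085 in the wild type. The median strain difference ranged from 0.0515 to 0.149, the highest without wild-type array 1. The ptc1 median was also above 0, at 0.017, over genes measured on all 4 arrays. The causes were not tested. Centring the arrays moved no count of these genes. No paired analysis was possible because the labels number no replicates, and the dyes in the titles, which could match arrays across strains, are contradicted by the dye fields for ptc1. Matched by the titles, the median strain difference was 0.02 with rapamycin in Cy3 and 0.12 with rapamycin in Cy5. With the ptc1 arrays matched by their dye fields instead, it was 0.04 with rapamycin in Cy3 and 0.09 with rapamycin in Cy5. Signal over background is not in the table, so what dim spots limit was not examined.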
